A study of Arabidopsis thaliana with 18 samples.

Results

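The response of Arabidopsis thaliana seeds to imbibition, the uptake of water by the dry seed, was compared between wild type and a line labelled tcp14. For each locus the interaction was computed, which is the log2 change from dry to 24 h imbibed seeds in the tcp14-labelled line minus the same change in wild type. Every locus of the deposited counts was a member: 33602 loci were listed in each library, and 18061 passed the filter on low counts and were tested. The 4 groups held 3 libraries each, 12 of the 18 libraries of the series, and the 6 libraries of a line labelled mpk8 served to ask where the tcp14-labelled response differed from that of another line. All plants were grown at 21 °C. Dry seeds had no treatment, and the imbibed seeds were dormant ones kept with water in darkness at 25 °C for 24 h. The labels give wild type, tcp14 mutant and mpk8 mutant as the genotypes and speak of gene knock outs, without naming alleles, accession background or the number of independent lines. The study's labels place the comparison in work on the release of seed dormancy. Polyadenylated RNA of whole seeds was sequenced in stranded read pairs, and a fall of a transcript in such bulk RNA cannot be told apart from fewer cells that hold it.

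A dry Arabidopsis seed holds transcripts left from maturation: those for storage globulins and albumins, oil body proteins, late embryogenesis abundant (LEA) proteins and heat shock proteins. After water uptake these are broken down while transcripts for ribosomes, cell wall loosening, water channels and energy metabolism accumulate. Dormant seeds also go through the first hours of this change and do not complete germination. Abscisic acid (ABA) keeps seeds dormant, gibberellin promotes germination, and DOG1 is a seed protein that sets the depth of dormancy. TCP14 codes for a transcription factor of class I of the plant TCP family and is known from Arabidopsis seeds as a promoter of embryo growth during germination. MPK8 is a gene for a kinase of the MAP kinase family.

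Between 12170793 and 21233207 read pairs were counted per library in the 4 groups. Levels are given as CPM, read pairs per 1000000 pairs of library size, corrected for composition with the TMM method, so they compare 1 locus between libraries and not different loci. A locus was called when its adjusted p, from the edgeR quasi-likelihood test with Benjamini-Hochberg adjustment over all tested loci, was under 0.05. A positive interaction means that the change on imbibition was more positive (a smaller fall or a larger rise) in the tcp14-labelled line, and a negative one that it was more negative. The TMM factors were 1.16 to 1.33 in imbibed libraries labelled tcp14, lowest in replicate 3, against 1.56 to 1.60 in imbibed wild type, and 0.728 to 0.777 in dry libraries of both lines. Scaling to library totals in their place moved the median interaction of all loci by -0.36 log2, so a positive interaction under about that size can turn with the scaling, and larger ones can lose their call. The same change of scaling moved the median change on imbibition by 1.09 log2 in wild type and 0.73 log2 in the tcp14-labelled line. Falls smaller than these can become rises, and the rises and falls below are those with TMM scaling. Replicates are biological by the labels, which do not say what they share, so p-values cover the spread between these libraries.

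The transcript of the gene named in the label was higher, not lower, in the line labelled tcp14. TCP14 (AT3G47620) stood at 5.77, 6.38 and 8.43 CPM in dry wild type and 13.7, 17.7 and 15.8 CPM after imbibition. In the libraries labelled tcp14 it stood at 44.5, 43.5 and 44.2 CPM dry and 36.6, 36 and 30.9 CPM imbibed. The lines did not overlap in either state, and the tcp14-labelled libraries were the higher ones in both. TCP14 rose on imbibition in wild type (1.2 log2) and fell in the tcp14-labelled line (-0.35 log2), an interaction of -1.55 (SE 0.15, adjusted p = 9.4e-08). The fall is smaller than the 0.73 log2 by which library totals moved the median change of that line, so it can turn with the scaling. With library totals the interaction was -1.91 and called (adjusted p = 5.9e-08). The counts of read pairs over the locus do not show where on the gene the reads lie or whether they give a protein, so they go against the label only as transcript counts, and every direction below is that of the libraries labelled tcp14. MPK8 (AT1G18150), the gene of the other line's label, had 11.4 ± 0.588 CPM in dry wild type (SD, n = 3) and 11.7 ± 0.849 CPM in the imbibed one, and 12.5 ± 0.669 and 10.8 ± 0.886 CPM in the tcp14-labelled line, with an interaction that did not pass the test (-0.25, adjusted p = 0.20). With library totals the interaction of MPK8 was called (-0.60, adjusted p = 0.0044).

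Loci whose level differed between the dry lines were crowded on parts of 2 chromosomes, and this touches some genes named below. Along the chromosomes in bins of 2500 locus numbers, 18 of the 113 bins with at least 20 tested loci had at least 4% of their loci called at 2-fold or more between dry tcp14-labelled and dry wild-type seeds. Of these 18 bins, 7 lay on chromosome 1 and 11 on chromosome 3, 1 of them with TCP14 itself. They held 266 of the 377 loci called at 2-fold or more between the dry lines (70.56%) and 14.86% of the tested loci on the nuclear chromosomes. The loci in them are called loci of the dense bins here, and what their position has to do with a result was not tested.

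With TMM scaling most called loci changed in the same direction in both lines and by less in the tcp14-labelled line. The interaction was called for 5991 of 18061 loci (33.2%), 3475 more positive (19.2%) and 2516 more negative (13.9%). Of the 5991, 2579 fell in both lines and fell less in the tcp14-labelled line, and 1523 rose in both and rose less there. These 4102 loci were 68.5% of the calls, while 565 (9.43%) changed more in the tcp14-labelled line in the same direction, 307 of them by a larger fall and 258 by a larger rise. Another 721 (12%) were called on imbibition of wild type and not of the tcp14-labelled line, 424 (7.08%) the other way round, 163 (2.72%) were called in opposite directions, and 16 in neither line. Imbibition itself was called for 86.1% of loci in wild type (46.0% rose, 40.1% fell) and 83.1% in the tcp14-labelled line (43.8% rose, 39.3% fell). Rises were 53.4% of these calls in wild type and 52.7% in the tcp14-labelled line, but 79.6% and 75.6% with library totals. The split into rising and falling loci, and the classes above that use it, thus depend on the scaling. With library totals 887 loci were more positive and 6496 more negative, so the share of more positive calls went from 58% to 12%, and the number of more positive calls depends on the scaling. The same interaction of the mpk8 line against wild type was called for 7051 loci (39.0%), 4336 more positive and 2715 more negative. An altered response was therefore not particular to the tcp14-labelled line.

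**Figure D1:**
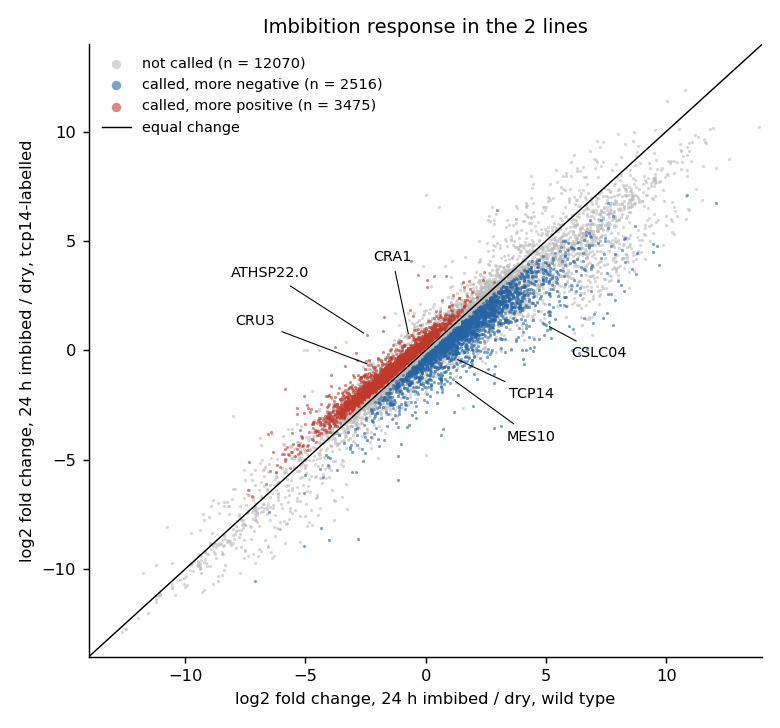
Log2 fold change from dry to 24 h imbibed seeds in wild type (horizontal axis) and in the tcp14-labelled line (vertical axis), 1 point per tested locus, with called interactions in colour and the line of equal change in black. Points of loci that fell lie mostly above the line and points of loci that rose lie mostly below it, 3475 more positive and 2516 more negative calls in all.

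The difference lay mainly in imbibed seeds. Of the 5991 called loci, 4518 (75.4%) differed between the lines at 24 h and not dry, 382 (6.38%) dry and not at 24 h, 801 (13.4%) in both states and 290 (4.84%) in neither. In the direct comparisons 11.4% of all tested loci were called between the dry lines, 6.12% higher and 5.27% lower in the tcp14-labelled one. Between the imbibed lines 55.2% were called, 27.3% higher and 28.0% lower. These splits depend on the scaling. Higher levels made up 49.4% of the calls between imbibed lines with TMM scaling and 12.6% with library totals, where 62% of loci were called. Between dry lines they made up 53.7% with TMM scaling and 45.3% with DESeq2 size factors. Since wild-type libraries enter both a wild-type change and the interaction, the loci were sorted by their change in the mpk8 line, whose libraries enter neither side of the interaction. Among the 1086 loci with an mpk8 change from -4 to -2 log2, the median change was -2.83 log2 in wild type and -2.48 log2 in the tcp14-labelled line, and 40.0% were called more positive against 10.5% more negative. Among the 1941 loci with an mpk8 change from 2 to 4 log2, the medians were 3.12 and 2.54 log2, and 24.5% were called more negative against 1.13% more positive. Among the 523 loci that fell by more than 4 log2 in mpk8 the medians were -5.90 in wild type and -6.25 log2 in the tcp14-labelled line, so the median fall of the loci with the deepest falls was not smaller. At 2-fold or more the interaction was called for 1141 loci (6.32%), 259 more positive (1.43%) and 882 more negative (4.88%).

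Storage protein transcripts fell less in the tcp14-labelled line, and 1 of them rose there. All 9 tested members, cruciferins, albumins and a vicilin, were called more positive, from 1.2 to 1.61 log2, with a median of 1.35 beside -0.02 for all tested loci, and all 9 stayed so with library totals. Loci with an mpk8 change of -4 to -2 and of -2 to -1 log2 had median interactions of 0.33 and 0.26. CRA1 (AT5G44120), a cruciferin (12S globulin), stood at 40892, 40430 and 43808 CPM in dry and 23345, 28245 and 26042 CPM in imbibed wild type. In the tcp14-labelled line it stood at 47975, 42647 and 41625 CPM dry and 56340, 65314 and 80120 CPM imbibed. Dry libraries of the lines overlapped, and every imbibed tcp14-labelled library was above every other library of both lines. CRA1 fell in wild type (-0.69 log2) and rose in the tcp14-labelled line (0.61 log2), an interaction of 1.30 (SE 0.19, adjusted p = 1.8e-05). The wild-type fall is smaller than the 1.09 log2 by which library totals moved the wild-type median, so it can turn with the scaling. CRU3 (AT4G28520), another cruciferin, held 9679, 12298 and 12004 CPM in imbibed wild type and 30044, 35897 and 45495 CPM in imbibed tcp14-labelled libraries, from 55256 and 59393 CPM dry, with an interaction of 1.61 (SE 0.20, adjusted p = 2.8e-06). The albumin SESA1 went from 3301 CPM dry to 279.8 CPM imbibed in wild type and 3117 to 674 CPM in the libraries labelled tcp14 (interaction 1.35, adjusted p = 9.9e-08). The vicilin-like PAP85 went from 34471 CPM dry to 7652 CPM imbibed in wild type and 32399 to 18968 CPM in the libraries labelled tcp14 (interaction 1.40, adjusted p = 1.6e-06). Between the dry lines 1 of the 9 was called higher and 2 lower in the tcp14-labelled line, and at 24 h all 9 were higher.

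Oil body and LEA transcripts followed the same direction with smaller differences. All 5 oil body members were called more positive (median 1.01 log2), and 4 with library totals. The oleosin OLEO1 (AT4G25140), which coats the oil body, went from 16417 CPM dry to 2018 CPM imbibed in wild type and 15124 to 4041 CPM in the libraries labelled tcp14 (interaction 1.12, adjusted p = 8.4e-06). The caleosin ATS1 went from 1185 CPM dry to 115 CPM imbibed in wild type and 1163 to 228 CPM in the libraries labelled tcp14 (interaction 1.01, adjusted p = 6.7e-08). OLEO4, in a dense bin, had an interaction of 1.23 (adjusted p = 1.8e-06). Of 20 tested LEA members, hydrophilic proteins made as seeds dry, 15 were more positive and 3 more negative (median 0.71 log2), and 11 and 3 with library totals. The dehydrin RAB18 (AT5G66400) held 2008, 2598 and 2112 CPM in imbibed wild type and 4076, 4350.5 and 5640 CPM in imbibed tcp14-labelled libraries, from 46715 and 40233 CPM dry, and its interaction was 1.28 (SE 0.18, adjusted p = 1.0e-05). M17 was already lower in dry tcp14-labelled seeds, 2178 against 3952 CPM, and higher in imbibed ones, 1654 against 991 CPM, which gave the largest value of the list (1.60, adjusted p = 4.0e-06). The 3 LEA members called the other way were the dehydrins ERD14 (-1.54, adjusted p = 3.4e-04) and COR47 (-1.32, adjusted p = 0.028, in a dense bin), and SAG21 (-0.58, adjusted p = 0.0034). ERD14 went from 8.11 CPM dry to 3.79 CPM imbibed in wild type and 9.66 to 1.53 CPM in the libraries labelled tcp14. COR47 rose in both lines, from 3.88 CPM dry to 26.4 CPM imbibed in wild type and 3.66 to 10.3 CPM in the libraries labelled tcp14. COR47 lost its call without dry wild-type replicate 3, imbibed tcp14-labelled replicate 3 or dry tcp14-labelled replicate 1, with values from -1.1 to -0.43 log2, and with the Wald test of DESeq2 (-1.28, adjusted p = 0.12).

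**Figure D2:**
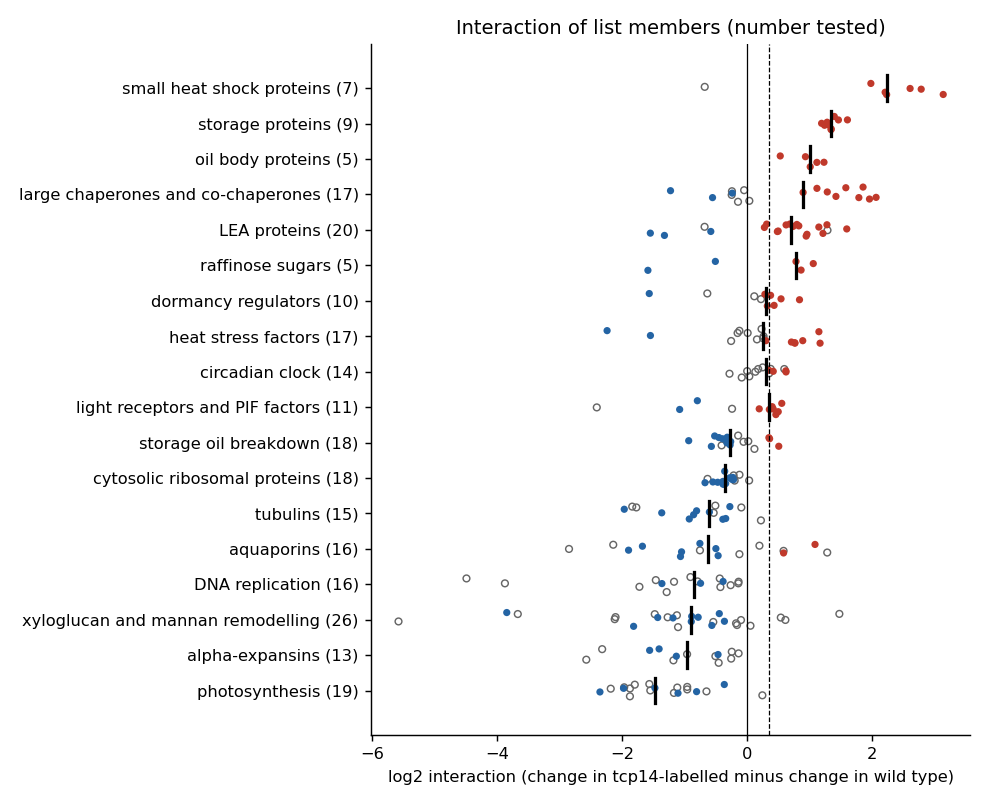
Interaction of the tested members of 18 gene lists, 1 point per locus on the log2 axis, filled where called (red more positive, blue more negative) and open where not, with a black bar at the list's median. The solid line marks 0 and the dashed line marks where 0 would lie on average with library totals, 0.36 log2 higher; the medians of small heat shock, storage and oil body proteins lie to the right of both, and those of expansins, DNA replication and photosynthesis to the left.

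Small heat shock proteins, which hold unfolded proteins and are stored as transcripts in dry seeds, were mostly called more positive. Of 17 members written, 7 had their symbol in the reference table and were tested, and the other 10 were left out, so the counts describe these 7. Of them 6 were called more positive and none more negative, with a list median of 2.24 log2 (1.87 with library totals). Among genes named by the rule with at least 0.5 CPM in every group, ATHSP22.0 (AT4G10250), of the endoplasmic reticulum, had the largest positive interaction. It held 38.3, 32.6 and 42 CPM in dry and 8.50, 6.55 and 5.6 CPM in imbibed wild type. The tcp14-labelled libraries held 22.5, 22.1 and 19.6 CPM dry and 32.4, 33.0 and 39.0 CPM imbibed. The tcp14-labelled line was thus the lower one in dry seeds and the higher one in imbibed seeds, with no overlap in either state. The interaction was 3.14 (SE 0.16, adjusted p = 1.9e-11).

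The crossing of the lines between states recurred in other members. The mitochondrial HSP23.6-MITO (AT4G25200) had 182, 196 and 205 CPM in dry wild type and 119.8, 115 and 104 CPM in dry tcp14-labelled seeds. After imbibition it had 19.5, 21.1 and 17.2 and 59.9, 60.6 and 85.4 CPM, in the same order, an interaction of 2.61 (SE 0.15, adjusted p = 5.2e-11). The cytosolic HSP17.4 (AT3G46230), in a dense bin, fell from 5013 CPM dry to 169.9 CPM imbibed in wild type, and from 3117 CPM to 497 CPM for the tcp14-labelled line (2.24, adjusted p = 1.0e-09). HSP17.6II, of cytosolic class II, had 25.7 CPM in dry wild type and 9.91 CPM in dry tcp14-labelled seeds, fell in both lines, and its imbibed libraries overlapped (0.740 and 1.34 CPM, interaction 2.21, adjusted p = 3.4e-05). The chloroplast HSP21 had 1.97, 0.422 and 0.185 CPM in imbibed wild type, with replicate 1 above the other two, and 2.51, 1.18 and 1.38 CPM in imbibed tcp14-labelled libraries. Its imbibed libraries overlapped, and its interaction of 2.79 (SE 0.61, adjusted p = 0.0011) came with a dry level of 1.83 CPM against 6.67 CPM. Without imbibed wild-type replicate 1 the interactions of HSP21 and HSP17.6II were 4.39 and 3.00 log2. Over the list, 5 of 7 were called lower in dry tcp14-labelled seeds and 5 of 7 higher in imbibed ones. HSP18.2 was not called (-0.67, adjusted p = 0.81), at means of at most 2.85 CPM.

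Among 17 tested large chaperones and co-chaperones, 9 were more positive and 3 more negative (9 and 8 with library totals). The 9 were among the 10 members that fell on imbibition of wild type. Hsp70b (AT1G16030) held 78.2, 84.7 and 76.3 CPM in imbibed wild type and 224, 199.5 and 289 CPM in imbibed tcp14-labelled libraries, from 2144 and 1523 CPM dry, and its interaction was 2.07 (SE 0.15, adjusted p = 4.6e-09). HSP101, which unfolds aggregated proteins, went from 969 CPM dry to 80.1 CPM imbibed in wild type and 809 to 242 CPM in the libraries labelled tcp14 (1.86, adjusted p = 8.0e-08). HSP90.1 went from 1151 CPM dry to 112 CPM imbibed in wild type and 906 to 305 CPM in the libraries labelled tcp14 (1.79, adjusted p = 1.4e-08). The co-chaperone BAG6 went from 64.6 CPM dry to 11.8 CPM imbibed in wild type and 45.2 to 32 CPM in the libraries labelled tcp14 (1.96, adjusted p = 7.2e-08). The 3 more negative members rose on imbibition: the endoplasmic reticulum chaperones BIP1 (-0.55, adjusted p = 0.0073) and BIP2 (-1.22, adjusted p = 1.0e-05), and the mitochondrial HSP60 (-0.23, adjusted p = 0.015). Of 17 tested heat stress transcription factors 7 were more positive and 2 more negative (5 and 5 with library totals, where the list's median of 0.26 turned to -0.10 log2). The median change of the list in mpk8 was -1.12 log2. More positive calls made up 43.0% and 40.0% of all loci with an mpk8 change of -2 to -1 and of -4 to -2 log2. The more positive count of the heat stress factors lies near these shares. The seed factor HSFA9 (AT5G54070) had 22.1, 25.9 and 22.7 CPM in imbibed wild type and 53.7, 48.8 and 58.1 CPM in imbibed tcp14-labelled seeds, from overlapping dry levels of 445 and 455 CPM, and an interaction of 1.15 (SE 0.10, adjusted p = 2.7e-08). HSFA2 had 1.17 (adjusted p = 7.4e-05). The 2 more negative calls became 1 without imbibed wild-type replicate 3, dry wild-type replicate 1, imbibed tcp14-labelled replicate 3 or dry tcp14-labelled replicate 2 or 3, and 0 without dry wild-type replicate 2.

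**Figure D3:**
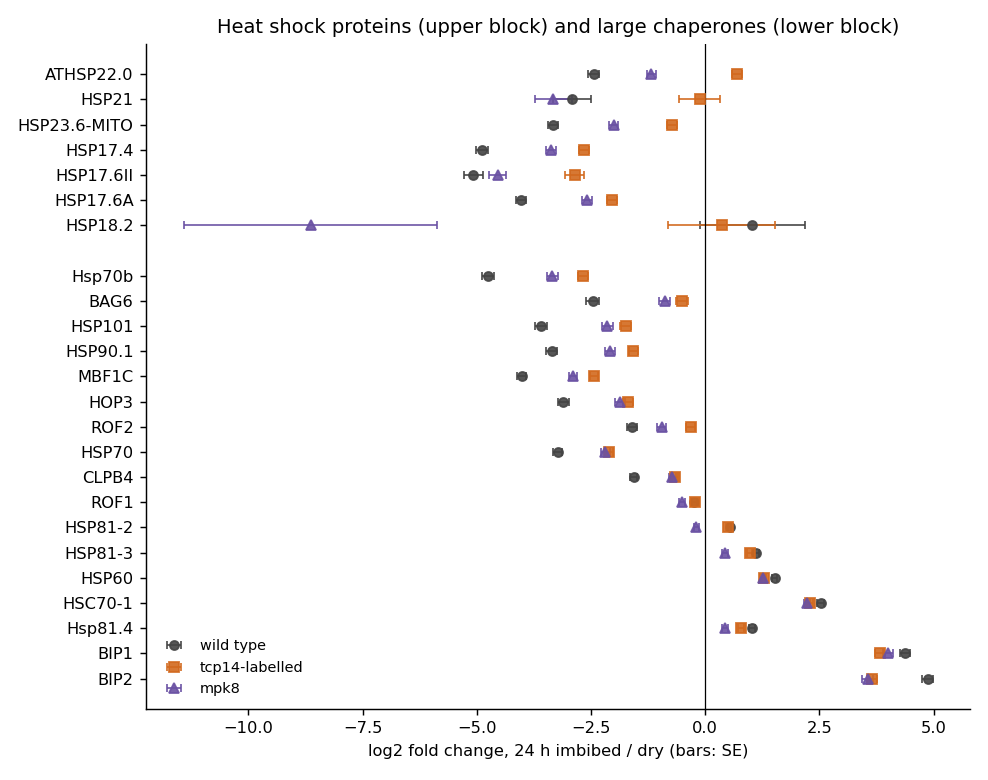
Log2 fold change from dry to 24 h imbibed seeds with its SE for the tested small heat shock proteins (upper block) and large chaperones (lower block) in wild type, the tcp14-labelled line and the mpk8 line, n = 3 libraries a group. ATHSP22.0 moved by -2.44 log2 in wild type, -1.18 in mpk8 and 0.70 in the tcp14-labelled line; the wide bar of HSP18.2 belongs to a locus with few pairs.

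Transcripts of the ABA pathway moved in both directions. DOG1 (AT5G45830) fell in both lines, from 46.0, 47.4 and 45.5 to 0.944, 1.06 and 1.37 CPM in wild type and from 53.0, 45.7 and 46.9 to 2.42, 2.08 and 1.88 CPM in the tcp14-labelled line. Dry libraries overlapped, and each imbibed tcp14-labelled library was above each imbibed wild-type library, an interaction of 0.84 (SE 0.19, adjusted p = 0.0013). With library totals it was 0.49 and not called (adjusted p = 0.052). Of 13 tested genes of ABA synthesis and breakdown 4 were more positive and 1 more negative (3 and 5 with library totals, 5 and 2 without imbibed tcp14-labelled replicate 2). The synthesis gene NCED9 (AT1G78390) fell in wild type, 6.83, 7.4 and 7.70 CPM dry and 3.26, 2.90 and 2.93 CPM imbibed, while the tcp14-labelled line had 4.73, 4.43 and 4.89 CPM dry and 4.35, 4.44 and 5.09 CPM imbibed. Its dry level was lower and its imbibed level higher in the tcp14-labelled line, with an interaction of 1.24 (SE 0.17, adjusted p = 7.3e-06). NCED6 (1.52, adjusted p = 0.0095) and ABA1 (0.61, adjusted p = 9.6e-06), also of ABA synthesis, were more positive. The ABA hydroxylase gene CYP707A3 (AT5G45340), whose product inactivates ABA, had 4.52, 3.64 and 4.15 CPM in imbibed wild type and 1.54, 1.56 and 1.44 CPM in imbibed tcp14-labelled seeds, from overlapping dry levels of 1.26 and 1.46 CPM. It rose in wild type, and its interaction was -1.65 (SE 0.36, adjusted p = 0.001).

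Of 23 tested ABA receptors, phosphatases and kinases 9 were more positive and 4 more negative, but 1 and 4 with library totals, where the median of 0.32 turned to -0.05 log2. The receptor gene PYL2 went from 2.07 CPM dry to 7.67 CPM imbibed in wild type and 2.53 to 3.10 CPM in the libraries labelled tcp14 (-1.60, adjusted p = 5.8e-04). PYL7 went from 47.5 CPM dry to 6.57 CPM imbibed in wild type and 50.7 to 11.8 CPM in the libraries labelled tcp14 (0.76, adjusted p = 3.1e-05). The phosphatase gene HAI2 had 38.3 and 37.1 CPM in wild type and went from 48.0 to 69.7 CPM in the tcp14-labelled line (0.58, adjusted p = 1.0e-04), which was 0.22 and not called with library totals (adjusted p = 0.077). Of 10 dormancy regulators 6 were more positive and 1 more negative, 0 and 1 with library totals. SOM, a repressor of light-driven germination, had an interaction of 0.55 (adjusted p = 1.5e-04), 0.18 and not called with library totals, and SPT, a bHLH factor, was the negative one (-1.56, adjusted p = 0.0034), from 1.07 CPM dry to 19.7 CPM imbibed in wild type and 1.2 to 7.56 CPM in the libraries labelled tcp14, with a value of -2.37 log2 without dry wild-type replicate 1. Among ABA and maturation factors 3 of 14 were more positive, 0 with library totals where 3 were more negative, ABI5 among them in the first count (0.41, adjusted p = 0.0012, and 0.04 with library totals). Of 12 genes of gibberellin synthesis and breakdown 1 was called, GA3 (0.45, adjusted p = 7.4e-05). With library totals GA3 was not called (0.08, adjusted p = 0.36), 0 of the list were more positive and 2 more negative. The list had 2 calls without imbibed wild-type replicate 3, dry wild-type replicate 1 or imbibed tcp14-labelled replicate 1. Of 14 genes of gibberellin perception and response 4 were more positive and 1 more negative (3 and 4 with library totals), the receptor gene GID1A with 0.90 (adjusted p = 5.1e-07). More positive calls made up 19.2% of all tested loci and 29.8% of those with an mpk8 change of -1 to 0 log2. The more positive counts of ABA synthesis and breakdown, ABA and maturation factors, gibberellin perception and response, and the clock genes below lie near these shares.

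Among expansins and genes of wall remodelling no call was positive. Of 13 tested alpha-expansins, which loosen cell walls, 4 were more negative and none more positive (median -0.96 log2). More negative calls made up 13.9% of all tested loci, and 24.5% and 12.8% of those with an mpk8 change of 2 to 4 and of over 4 log2, and the counts of expansins and of the DNA replication genes below lie near these shares. The median interaction of loci with these mpk8 changes was -0.52 and -1.13 log2, and that of the expansins lies between. EXPA3 (AT2G37640) held 115, 106 and 116 CPM in imbibed wild type and 55.2, 47.4 and 39.0 CPM in imbibed tcp14-labelled seeds, from overlapping dry levels of 1.19 and 1.40 CPM, with an interaction of -1.56 (SE 0.41, adjusted p = 0.0048). EXPA20 (-1.40, adjusted p = 9.4e-04) and EXPA4 (-1.13, adjusted p = 0.0034) followed. Of 26 genes of xyloglucan and mannan remodelling 10 were more negative and none more positive. The wall remodelling enzyme gene XTH5 went from 3.81 CPM dry to 47.2 CPM imbibed in wild type and 3.83 to 21.0 CPM in the libraries labelled tcp14 (-1.18, adjusted p = 4.6e-04). CSLC04 (AT3G28180), in a dense bin, codes for a synthase of the xyloglucan backbone and had 0.385, 0.595 and 0.416 CPM in dry and 16.4, 15.4 and 14.4 CPM in imbibed wild type. In the tcp14-labelled line it had 1.75, 1.73 and 2.82 CPM dry and 5.76, 4.49 and 3.87 CPM imbibed, higher than wild type in dry seeds and lower in imbibed ones, and the interaction of -3.84 (SE 0.37, adjusted p = 1.0e-07) holds both differences.

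Of 16 tested aquaporins, the water channels, 7 were more negative and 2 more positive. PIP1C (AT1G01620), of the plasma membrane, rose from 1.53 CPM to 14.8, 14.6 and 14.9 CPM in wild type and from 2.25 CPM to 6.11, 6.09 and 5.36 CPM in the tcp14-labelled line, with an interaction of -1.89 (SE 0.24, adjusted p = 2.9e-06). PIP2A, in a dense bin, was not called on imbibition of wild type (8.26 and 8.19 CPM, -0.01 log2) and fell from 8.98 to 2.82 CPM in the tcp14-labelled line (-1.67, adjusted p = 2.8e-05). TIP3;1, a seed aquaporin of the protein storage vacuole, went the way of the storage transcripts, from 4662 CPM dry to 701 CPM imbibed in wild type and 4264 to 1366 CPM in the libraries labelled tcp14 (1.09, adjusted p = 1.0e-05). Of 15 tubulins 9 were more negative and none more positive, TUA4 (AT1G04820) going from 3.56 CPM dry to 125 CPM imbibed in wild type and 4.66 to 41.5 CPM in the libraries labelled tcp14 (-1.96, adjusted p = 8.9e-05). TUB7 rose in wild type, to 37.4, 34.3 and 39.7 CPM, and fell in the tcp14-labelled line, to 17.9, 15.5 and 12.8 CPM (-0.92, adjusted p = 6.5e-06).

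All 16 tested DNA replication genes rose in both lines, and 3 were called more negative (5 with library totals) with none more positive. They were TSO2 (-1.36, adjusted p = 6.2e-05, in a dense bin) and RNR1 (-0.38, adjusted p = 0.0029), both subunits of ribonucleotide reductase, and MCM4 (-0.74, adjusted p = 0.015), of the replicative helicase. At 24 h all 16 were lower in the tcp14-labelled line. MCM4 lost its call without dry tcp14-labelled replicate 3 (-0.58 log2). Of 11 cyclins and division kinases 1 was more positive (CYCD3;3, 0.78, adjusted p = 0.046, in a dense bin) and 1 more negative (CYCD3;2, -0.65, adjusted p = 0.0059), and 0 and 1 with library totals. CYCD3;3 lost its call without any 1 of 6 libraries (imbibed wild type 2, dry wild type 2 or 3, imbibed tcp14-labelled 2, dry tcp14-labelled 1 or 3), at 0.59 to 0.76 log2. Such counts are over the 12 libraries of the interaction, and CYCD3;3 and TCP2 also lost their calls without any 1 of 2 mpk8 libraries, which enter the shared spread. Of 18 cytosolic ribosomal protein genes 13 were more negative and none more positive, at a median of -0.35 log2. Each of the 18 rose in both lines, and the 3 largest were RPS15A (-0.67, adjusted p = 7.3e-06), RPL23AB (-0.54, adjusted p = 1.7e-04, in a dense bin) and RPL18 (-0.47, adjusted p = 4.7e-04). RPS15A had 200.3, 180.4 and 178 CPM in imbibed wild type and 153, 149 and 142 CPM in imbibed tcp14-labelled seeds.

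**Figure D4:**
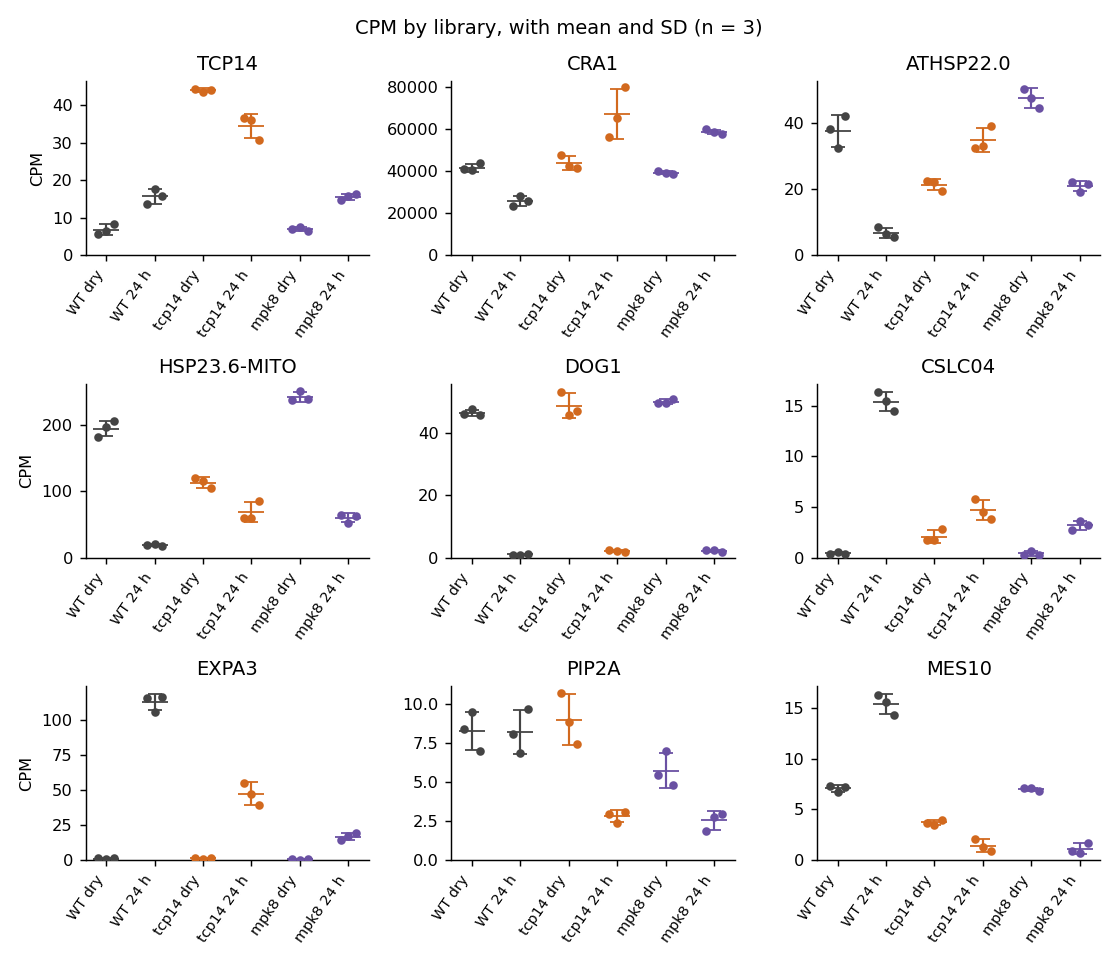
CPM of 9 genes in each library (points), with the group mean and SD (n = 3), for wild type, the tcp14-labelled line and the mpk8 line, dry and 24 h imbibed; each panel has its own linear axis from 0. TCP14 was higher in the tcp14-labelled line in both states, CRA1 fell in wild type and rose in both labelled lines, and CSLC04 and EXPA3 reached less in imbibed seeds of both labelled lines.

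Other genes named for the most negative interactions had varied roles and came from no list. DIN10 (AT5G20250), of the raffinose synthase family and known as induced in the dark, rose from 0.622 CPM to 155, 129.8 and 160.4 CPM in wild type. In the tcp14-labelled line it rose from 1.58 CPM to 53.2, 29.7 and 24.4 CPM, with replicate 1 highest, an interaction of -3.44 (SE 0.76, adjusted p = 0.0011). ATBETAFRUCT4 (AT1G12240), a vacuolar invertase gene, rose in wild type from 1.36 to 9.13 CPM, and was 2.16 and 2.19 CPM in the tcp14-labelled line (-2.73, adjusted p = 5.3e-05). APE2 (AT5G46110), which codes for the triose phosphate carrier of the chloroplast, had 9.91, 8.45 and 9.83 CPM in imbibed wild type and 1.72, 1.65 and 1.55 CPM in imbibed tcp14-labelled libraries, from overlapping dry levels under 1 CPM on average, with an interaction of -2.81 (SE 0.51, adjusted p = 1.9e-04), or -1.94 log2 without dry tcp14-labelled replicate 2. BXL2 (AT1G02640), a beta-xylosidase gene, rose to 181, 161 and 189 CPM in wild type and 68.2, 47.7 and 37.3 CPM in the tcp14-labelled line (-2.43, adjusted p = 0.0014). G3Pp1 (AT3G47420), of the glycerol-3-phosphate permease family, and scpl48, a serine carboxypeptidase-like gene, both in dense bins, had interactions of -3.04 (adjusted p = 9.4e-08) and -2.76 (adjusted p = 0.0026). Without dry tcp14-labelled replicate 1 scpl48 lost its call (-1.63 log2). G3Pp1 was already higher in dry tcp14-labelled seeds, 3.37 against 0.646 CPM. ABCI21, of the ABC transporter family, was the exception that fell in both lines and fell more in the tcp14-labelled one, from 17 CPM dry to 2.27 CPM imbibed in wild type and 31.3 to 0.638 CPM in the libraries labelled tcp14 (-2.68, adjusted p = 2.4e-07), or -3.27 log2 without imbibed tcp14-labelled replicate 1. The interaction of the mpk8 line against wild type was also called negative for DIN10 (-3.81), ATBETAFRUCT4 (-4.78), APE2 (-2.94), BXL2 (-3.75) and ABCI21 (-3.20). In mpk8 those of G3Pp1 (-0.75, adjusted p = 0.18) and scpl48 (-0.91, adjusted p = 0.69) were not called.

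Of 5 raffinose family genes 3 were more positive and 2 more negative, with library totals too, and 3 and 1 without dry tcp14-labelled replicate 1. The galactinol synthase gene GolS1 went from 663 CPM dry to 136 CPM imbibed in wild type and 723 to 309 CPM in the libraries labelled tcp14 (1.06, adjusted p = 2.4e-07). STS rose in both lines and reached 40.9, 45.5 and 42.5 CPM in wild type and 86.4, 92.4 and 111 CPM in the tcp14-labelled line (0.79, adjusted p = 5.9e-05). Of 18 storage oil breakdown genes 10 were more negative and 3 more positive (14 and 0 with library totals). The peroxisomal citrate synthase gene CSY2, in a dense bin, went from 52.8 CPM dry to 26.4 CPM imbibed in wild type and 57.1 to 14.9 CPM in the libraries labelled tcp14 (-0.93, adjusted p = 4.3e-07). The gluconeogenesis gene PCK1 rose in wild type, from 1247 to 1708 CPM, and was 1321 and 1266 CPM in the tcp14-labelled line (-0.52, adjusted p = 4.3e-05). The glyoxylate cycle genes ICL (0.12, adjusted p = 0.48) and MLS (-0.05, adjusted p = 0.72) were not called. Of 19 tested photosynthesis genes 6 were more negative and none more positive (median -1.47 log2), 10 with library totals and 13 without imbibed tcp14-labelled replicate 1. RBCS1A (AT1G67090), the small subunit of Rubisco, had 263, 231 and 249.7 CPM in imbibed wild type and 156, 132 and 124 CPM in imbibed tcp14-labelled seeds, from 12.9 and 15.2 CPM dry, with an interaction of -1.1 (SE 0.13, adjusted p = 1.4e-06). LHCB5, a light-harvesting protein, fell in both lines, from 8.27 CPM dry to 2.41 CPM imbibed in wild type and 8.06 to 0.443 CPM in the libraries labelled tcp14 (-2.35, adjusted p = 3.2e-04), with -3.07 log2 without that library.

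Regulators of light responses and of the clock had called interactions mostly under 1 log2 in size. Of 11 light receptors and PIF factors 7 were more positive and 2 more negative, but 1 and 2 with library totals. PHYD had 0.56 (adjusted p = 2.1e-06) and PHYC 0.50 (adjusted p = 3.9e-04), the latter 0.14 and not called with library totals, while the factors PIF3 (-0.79, adjusted p = 9.8e-05) and PIL6 (-1.08, adjusted p = 0.0041, in a dense bin) were negative. PIF3 rose in wild type from 11.3, 13.3 and 10.5 to 18.1, 19.2 and 18.7 CPM, and had 17, 15.7 and 15.3 CPM dry and 14.7, 16.3 and 13.0 CPM imbibed in the tcp14-labelled line. Of 14 clock genes 4 were more positive and none more negative (2 and 2 with library totals): RVE8 (0.63, adjusted p = 2.6e-05), GI (0.62, adjusted p = 1.8e-04, in a dense bin), PRR9 (0.42, adjusted p = 0.039) and TOC1 (0.35, adjusted p = 3.9e-04, which turned to -0.01 log2 with library totals). PRR9 lost its call without any 1 of 9 of the 12 libraries, at 0.33 to 0.45 log2, without the filter, with the Wald test of DESeq2 and with library totals (0.06 log2). Of the 9 tested class I TCP factors, TCP14 included, 3 were more negative and 1 more positive (3 and 0 with library totals, 3 and 2 without imbibed tcp14-labelled replicate 1). TCP19 had -0.71 (adjusted p = 0.0042) and TCP20, in a dense bin, 0.47 (adjusted p = 0.014), or 0.11 and not called with library totals. Of 8 class II factors 1 was called, TCP2 (-0.52, adjusted p = 0.042), which lost its call without any 1 of 6 libraries, at -0.55 to -0.35 log2, and in a fit of the compared groups only, and 7 were more negative with library totals.

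Lists without a common direction were the jasmonate genes (7 more positive, 4 more negative of 20), those of reactive oxygen species (4 and 2 of 12), MAP kinases (3 and 1 of 15) and Polycomb repressive complex 2 (1 and 2 of 6). With library totals these counts were 2 and 7, 3 and 7, 1 and 9, and 0 and 5. The jasmonate counts were 4 and 4 without imbibed wild-type replicate 3 or dry tcp14-labelled replicate 2, and the MAP kinase counts 3 and 2 without imbibed wild-type replicate 1 and 2 and 2 without dry wild-type replicate 2. JAZ7, a jasmonate repressor gene, went from 2.52 CPM dry to 1.94 CPM imbibed in wild type and 2.24 to 4.38 CPM in the libraries labelled tcp14 (1.33, adjusted p = 0.0023). JAZ9 went from 1.30 CPM dry to 0.421 CPM imbibed in wild type and 1.65 to 0.140 CPM in the libraries labelled tcp14 (-1.84, adjusted p = 0.0072). The catalase gene CAT3, in a dense bin, had 0.88 (adjusted p = 3.2e-06), and APX1, an ascorbate peroxidase gene, -1.43 (adjusted p = 0.0041). MPK6 (0.20, adjusted p = 0.044) turned to -0.16 log2 with library totals and lost its call without any 1 of 10 libraries, at 0.18 to 0.22 log2, without the filter, with a replicate block (adjusted p = 0.051), in a fit of the compared groups only, with the Wald test of DESeq2 and without chromosomes 1 and 3. CLF, a Polycomb methyltransferase gene, rose less in the tcp14-labelled line (-1.61, adjusted p = 0.0033). Its relative SWN had 0.31 (adjusted p = 0.039), which turned to -0.05 log2 with library totals, and lost its call without any 1 of 6 libraries, at 0.26 to 0.33 log2, and without chromosomes 1 and 3.

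Smaller lists gave few calls. Of 5 nitrate genes 1 was more positive and 1 more negative (0 and 2 with library totals), the nitrate reductase gene NIA2 with -2.08 (adjusted p = 1.3e-04), in a dense bin. Of 8 wax and cutin genes 1 was negative, CER3 (-1.42, adjusted p = 3.0e-04), with 4 negative with library totals, 3 without dry wild-type replicate 2 and 2 without dry tcp14-labelled replicate 2. Of 8 indolic glucosinolate genes SUR1 was negative (-0.35, adjusted p = 0.034), and lost its call without any 1 of 9 libraries, at -0.35 to -0.27 log2, and in a fit of the compared groups only. Of 3 flavonoid genes TT5, in a dense bin, was positive (1.34, adjusted p = 0.012), and not without imbibed tcp14-labelled replicate 1 (1.1 log2) or with library totals (adjusted p = 0.056). For each list said here to have no call in a direction, edgeR at an unadjusted p under 0.05 and the Wald test of DESeq2 gave 0 in that direction as well.

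For 163 loci the imbibition response was called in opposite directions, 76 falling in wild type and rising in the tcp14-labelled line, CRA1 and ATHSP22.0 among them, and 87 the other way round. These counts are those with TMM scaling and were not made with library totals. MES10 (AT3G50440), of the methylesterase family and in a dense bin, rose in wild type from 7.31, 6.72 and 7.18 to 16.2, 15.6 and 14.3 CPM and fell in the tcp14-labelled line from 3.69, 3.47 and 4.0 to 2.11, 1.32 and 0.940 CPM. The tcp14-labelled libraries were below the wild-type ones in both states, more so after imbibition (-2.44, SE 0.29, adjusted p = 1.2e-06). PIN4 (AT2G01420), an auxin efflux carrier gene outside the dense bins, rose from 3.56, 4.51 and 3.02 to 5.86, 5.28 and 6.30 CPM in wild type and fell from 6.09, 5.39 and 5.78 to 2.24, 2.17 and 1.60 CPM in the tcp14-labelled line. It was lower in imbibed tcp14-labelled seeds, while the dry lines did not overlap but the difference between them did not pass the test (0.63 log2, adjusted p = 0.051), and the interaction was -2.16 (SE 0.28, adjusted p = 4.3e-06). MAPKKK19 (AT5G67080), a kinase gene upstream in MAP kinase cascades, went from 8.6 CPM dry to 12.2 CPM imbibed in wild type and 15.1 to 5.37 CPM in the libraries labelled tcp14 (-1.99, adjusted p = 2.8e-07). The receptor kinase gene PERK10, in a dense bin, went from 12.4 CPM dry to 19.4 CPM imbibed in wild type and 9.68 to 3.66 CPM in the libraries labelled tcp14 (-2.03, adjusted p = 1.9e-08).

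In the other direction, ATL15 (AT1G22500), a RING finger ubiquitin ligase gene in a dense bin, fell from 18.4, 21.9 and 22.7 to 14, 13.9 and 12.8 CPM in wild type and rose from 7.19, 5.97 and 6.75 to 20.2, 22.4 and 29.7 CPM in the tcp14-labelled line. Its dry libraries were lower in the tcp14-labelled line and its imbibed ones higher (2.47, SE 0.18, adjusted p = 2.4e-09). GAMMA CAL2 (AT3G48680), a carbonic anhydrase-like subunit of mitochondrial complex I, in a dense bin, fell from 96.9 CPM dry to 52.6 CPM imbibed in wild type and was 36 and 40.8 CPM in the tcp14-labelled line (1.06, adjusted p = 3.7e-08). It was lower in the tcp14-labelled line in both states. The wild-type falls of ATL15 (-0.63 log2) and GAMMA CAL2 (-0.88 log2) are smaller than the 1.09 log2 shift of the wild-type median with library totals. Their direction in wild type can thus turn with the scaling. CYP71B26, a cytochrome P450 gene in a dense bin, fell in wild type from 5.29 to 0.708 CPM and went from 3.03 to 2.18 CPM in the tcp14-labelled line (2.40, adjusted p = 2.9e-06).

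For 33 called loci, 11 of them with a symbol, at least 1 of the 4 groups had no read pair, and no fold is given for these. The phosphatase gene 5PTASE11 had 5.50, 6.83 and 5.56 CPM in dry and 1.54, 1.84 and 1.77 CPM in imbibed tcp14-labelled libraries, at most 0.595 CPM in dry wild type, and no pair in imbibed wild type. hda17, of the histone deacetylase family and in a dense bin, had 2.53, 2.31 and 2.08 CPM in dry and 1.63, 1.8 and 1.94 CPM in imbibed tcp14-labelled libraries, no pair in dry wild type and at most 0.158 CPM in imbibed wild type. Both were present in the tcp14-labelled line in each state and at or near 0 in wild type. DOX1, a fatty acid dioxygenase gene, and RIC1, a gene for an effector of ROP GTPases, had no pair in imbibed tcp14-labelled libraries, from 2.79 and 1.98 CPM dry, and 0.154 and 0.0554 CPM in imbibed wild type. hda17 lost its call without any 1 of 4 libraries and RIC1 without any 1 of 7, and both without the filter and with the Wald test of DESeq2.

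Whether the imbibition response of the tcp14-labelled line differed from that of the mpk8 line was tested as the difference between their changes, without the wild-type means, in the fit of all 18 libraries, whose spread is shared. In mpk8 44.4% of loci rose on imbibition and 38.7% fell. Called in the difference were 1870 of 18061 loci (10.4%), 826 more positive in the tcp14-labelled line (4.57%) and 1044 more negative (5.78%), or 1585 in a fit of the compared groups only, a split that other scalings moved (1074 of 1882 more positive with DESeq2 size factors, 438 of 2218 with library totals). Small heat shock proteins were more positive than in mpk8 for 6 of 7 members and large chaperones for 8 of 17, with none more negative. ATHSP22.0 fell by 1.18 log2 in mpk8, where imbibed libraries held 22.1, 19.2 and 21.6 CPM, and rose in the tcp14-labelled line, a difference of 1.88 (SE 0.15, adjusted p = 2.8e-08). HSP23.6-MITO differed by 1.28 (SE 0.14, adjusted p = 3.2e-06) and Hsp70b by 0.66 (SE 0.15, adjusted p = 0.006). Storage oil breakdown genes were more positive than in mpk8 for 9 of 18 and none was more negative, and tubulins for 6 of 15 with 1 more negative. TUB7 fell to 8.44, 9.19 and 9.28 CPM in imbibed mpk8 seeds, below the tcp14-labelled ones, a difference of 1.43 (SE 0.13, adjusted p = 1.5e-07). Light receptors and PIF factors were more negative for 5 of 11, PIL6 with -1.41 (SE 0.28, adjusted p = 0.0021).

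For the storage transcripts only SESA2 was called against mpk8 (0.48, SE 0.14, adjusted p = 0.029), and no oil body gene was. CRA1 rose in mpk8 too, to 59967, 58485 and 57889 CPM, and the difference between the lines was 0.03 (SE 0.19, adjusted p = 0.97). For DOG1 it was -0.05 (SE 0.17, adjusted p = 0.92) and for HSFA9 0.01 (SE 0.10, adjusted p = 0.99), which does not show that the lines responded alike. TCP14 rose in mpk8 from 7.10 to 15.7 CPM, and the tcp14-labelled response differed from it by -1.49 (SE 0.14, adjusted p = 3.7e-07). MES10 fell in both labelled lines, less so in the tcp14-labelled one (1.33, SE 0.33, adjusted p = 0.012), while PERK10, with 17.4, 17.4 and 21.9 CPM in imbibed mpk8, rose there and fell in the tcp14-labelled line (-1.64, SE 0.17, adjusted p = 7.8e-07). Since wild-type libraries are shared by the interaction of each line, the lines' interactions are given side by side without an overlap: CRA1 had 1.30 in the tcp14-labelled line and 1.27 in mpk8, EXPA3 -1.56 and -2.17, and TUA4 -1.96 and -3.32 log2.

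Called interactions were spread over all chromosomes, 32.6% to 34.3% of tested loci on each of the 5. Large ones were denser where the dry lines differed: 9.44% of loci in the 18 dense bins were called at 2-fold or more. Of the other loci on these chromosomes 5.78% were. The dry level enters both the choice of bins and the interaction, so this is a description and not a test. Over all tested loci 2939 more positive calls lay outside the dense bins. Among them were 5 small heat shock proteins, 9 storage proteins, 4 oil body proteins and 9 large chaperones, and members of other lists. The bins held 6 of the 16 genes named for the largest interactions and 4 of the 8 named for opposite directions. Of 61 tested chloroplast loci 0 were called by edgeR (1 at an unadjusted p under 0.05, and 0 by DESeq2), and of 41 mitochondrial loci 6, all more positive, in libraries made from polyadenylated RNA.

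**Figure D5:**
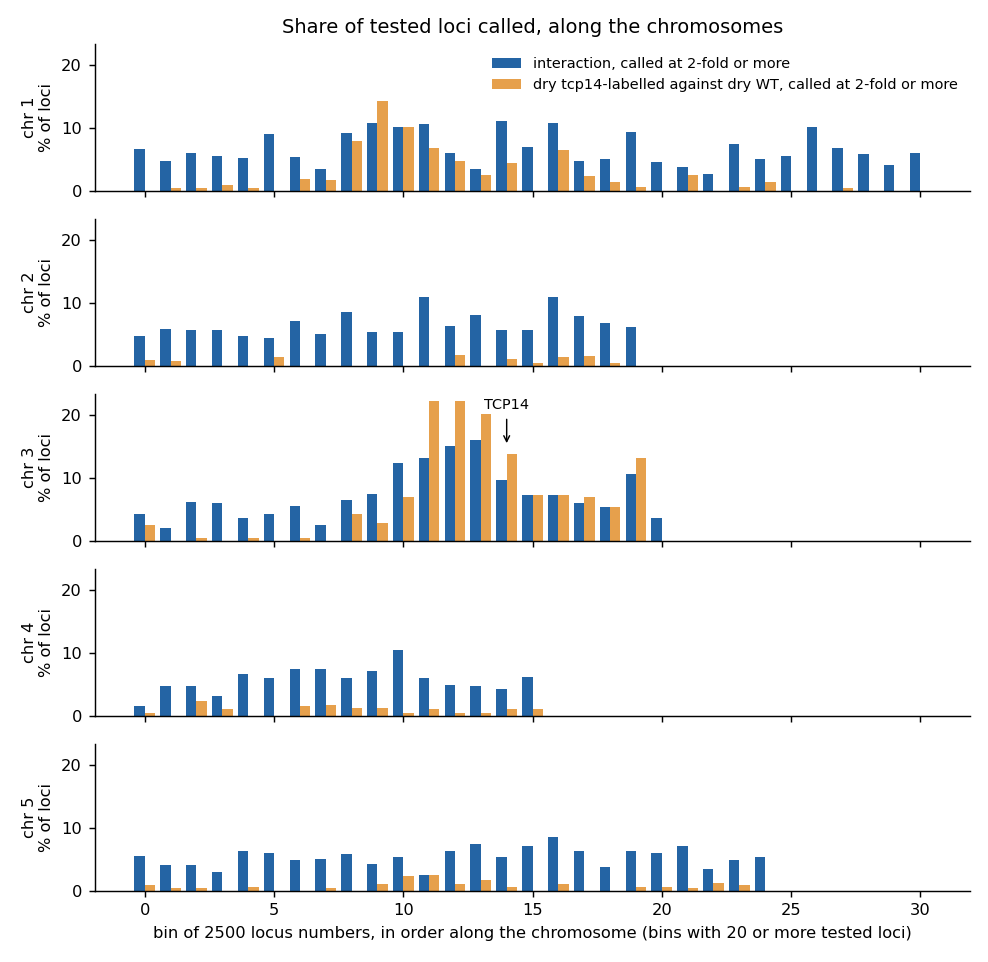
Share of tested loci called at 2-fold or more in the interaction (blue) and between dry tcp14-labelled and dry wild-type seeds (orange), by bin of 2500 locus numbers in order along the 5 chromosomes, bins with at least 20 tested loci. Orange bars reach 22.31% on chromosome 3, in another bin than that of TCP14, and have a median of 0.57%, while blue bars lie between 1.55% and 16.13% everywhere.

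Markers of cell types were checked in the same libraries. The 7 markers of embryo and seed maturation summed to 161600 to 173600 CPM in dry wild type, 159800 to 181800 CPM in dry tcp14-labelled seeds, 44180 to 54150 CPM in imbibed wild type and 110800 to 159000 CPM in imbibed tcp14-labelled seeds. Of 4 endosperm markers the most abundant was EPR1, an endosperm cell wall protein gene, with 28448 and 3069 CPM in wild type and 24822 and 5481 CPM in the tcp14-labelled line (1.03, adjusted p = 2.6e-04), and ZOU had no pair in any of the 4 groups. MAN7 was called in the other direction (-0.78, adjusted p = 3.5e-04), with 65.5 CPM in imbibed wild type and 44.3 CPM in imbibed tcp14-labelled seeds, and EXPA2 had 152 and 63.4 CPM there and was not called (-0.45, adjusted p = 0.94). The seed coat markers, 7 in all, summed to 9.69 to 10.6 CPM in dry wild type, 9.84 to 11.4 CPM in dry tcp14-labelled seeds, 42 to 50.1 CPM in imbibed wild type and 13.6 to 21.7 CPM in imbibed tcp14-labelled seeds. The most abundant was DELTA-VPE, with 32.2 and 9.28 CPM in imbibed seeds (-2.26, adjusted p = 0.19), while MUM4 was called (-0.76, adjusted p = 0.0013). Of these markers TT12 had no pair, and BAN and TT10 were at most 0.128 CPM on average. Pollen markers, 6 in all, summed to 136.3 to 150.4 CPM in dry wild type and 148.6 to 206.7 CPM in dry tcp14-labelled seeds, and to at most 1.14 CPM in imbibed seeds, where 4 of them had no pair. Of 10 pollen-type transcripts 0 were called in the interaction by edgeR (1 at an unadjusted p under 0.05, 0 by DESeq2), and 1 without dry wild-type replicate 3, imbibed tcp14-labelled replicate 2 or dry tcp14-labelled replicate 2. The 3 leaf markers summed to 234.7 to 271.5 CPM in imbibed wild type and 124.9 to 158.4 CPM in imbibed tcp14-labelled seeds, nearly all of it RBCS1A, and the part of any cell type in the results was not tested.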

How the data were processed

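Per the labels' protocols, polyadenylated RNA of seeds was made into stranded paired-end libraries, 3 in each of 6 groups of genotype and state. Per the submitters' processing notes, TopHat2 and Bowtie2 placed the reads on TAIR10, with versions not given in the sources used here. Per the file headers, the authors counted properly paired reads on reversed strands of the same reference, left out singletons and pairs with equally good hits elsewhere, and applied no limit on insert size. The deposited counts of read pairs per locus were used as they stand, 33602 loci a file. Symbols came from the TAIR10.1 table of RefSeq, which holds 32835 of these loci, 10654 with a symbol. Because its build has another name than the files' build, no coordinate or sequence is printed, and the planned search of promoters for motifs was not run. Overlapping and antisense genes and near-identical paralogs are uncertain.

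The 18061 loci passing filterByExpr were fitted with edgeR 4.0.16 (limma 3.58.1, R 4.3.3), TMM scaling and 1 mean per group over 18 libraries. The quasi-likelihood test gave adjusted p-values (Benjamini-Hochberg) per comparison, with calls under 0.05. SE are the absolute log2 change over the square root of F. CPM are counts over effective library sizes. Depth ran from 12170793 to 21233207 pairs in the 12 libraries of the interaction. On simulated counts of 17870 genes with 50 changed per fold, the fit recovered 4% of 1.25-fold, 48% of 1.5-fold, 94% of 2-fold and 98% of 4-fold interactions, and 5.43% of calls were unchanged genes. All lines were given the wild-type means, and changed genes had at least 1 CPM in both states. These rates therefore do not carry over to loci under 1 CPM or to data with as many called loci as here.

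The comparison, the 37 gene lists (526 entries written, 512 whose locus carries the listed symbol, 460 tested) and the naming rule were chosen with earlier results of these data known. The rule names TCP14, MPK8 and DOG1, the 8 largest interactions in each direction among called loci with a symbol, 5 CPM in the highest and 0.5 CPM in the lowest group, the 4 largest in each direction among loci called oppositely in the lines, up to 4 called members per list with at least 1 CPM, and 4 loci without a pair in a group, 137 genes in all. Other members of lists were named after their values were seen (BIP1, BIP2, HSP60, HSP18.2, SAG21, ICL, MLS and the markers EXPA2, MAN7 and DELTA-VPE). Alternatives were DESeq2 1.42.0 (size factors and Wald test), library totals, no filter, the compared groups alone, a replicate block, leaving out chromosomes 1 and 3, a 2-fold minimum and each library left out. Leaving out the dense bins was added after seeing the data. Some results are not reported here.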

Additional observations from a re-analysis of the deposited data

Results flagged for a closer look

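The imbibition response differed between the tcp14-labelled line and wild type for 5991 loci, and between the tcp14-labelled and mpk8 lines for 1870 loci, by edgeR tests of the difference itself. Of the genes named for responses called in opposite directions in the 2 lines, 4 rose in wild type and fell in the tcp14-labelled line: MES10 (interaction -2.44 log2), PIN4 (-2.16), PERK10 (-2.03) and MAPKKK19 (-1.99). The other 4 fell in wild type and rose in the tcp14-labelled line: ATHSP22.0 (3.14), ATL15 (2.47), CRA1 (1.30) and GAMMA CAL2 (1.06). In wild type ATL15 (-0.63 log2), CRA1 (-0.69) and GAMMA CAL2 (-0.88) fell by less than 1.09 log2, the shift of the wild-type median with library totals. Their opposite directions can thus turn with the scaling. MES10, PERK10, ATL15 and GAMMA CAL2 lie in the dense bins of chromosomes 1 and 3, and PIN4, MAPKKK19, ATHSP22.0 and CRA1 do not. The part of position in these values was not tested.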

How the results depend on the processing

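The interaction gave 5988 to 5989 calls without the filter or with DESeq2 size factors, 5503 with the DESeq2 Wald test, 5583 with the compared groups only and 5014 without the dense bins. With library totals 887 calls were more positive and 6496 more negative, and against mpk8 438 and 1780. Without chromosomes 1 and 3, where fewer loci are tested, there were 3149 interaction calls (1764 more positive, 1385 more negative), 822 against mpk8 (344 and 478), 8380 for imbibition of wild type, 8085 for the tcp14-labelled line, 599 between dry lines and 5146 between imbibed lines. With a 2-fold minimum the counts were 1141 (259 and 882), 361 (177 and 184), 10153, 8700, 377 and 2146 in the same order. Leaving out 1 library gave 5266 to 6433 interaction calls (2980 to 3730 more positive, 2099 to 2703 more negative), 1341 to 2021 against mpk8 (571 to 892 and 746 to 1129), 15336 to 15813 for wild type, 14625 to 15183 for the tcp14-labelled line, 1347 (without dry wild-type replicate 2) to 2334 between dry lines and 8834 to 10123 between imbibed lines. Replicate numbers did not pair the libraries (18 same-numbered pairs, correlation of deviations -0.22 to 0.33), and a replicate block gave 6075 interaction calls. Of 137 named genes 116 kept direction and call with library totals. TOC1 (-0.011), SWN (-0.051) and MPK6 (-0.16) reversed, and the cause was not tested. Loci near 0 in dry seeds have few pairs, which limits the precision of their interactions.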
